A study of Mus musculus with 8 samples.

Results

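Leukocyte adhesion molecules and their integrin partners were represented by 8 of the 750 immune-related genes of a NanoString nCounter mouse panel, and all 8 were found on it by gene symbol, not by a measured value. The set itself was chosen with earlier results of these data known. The set pairs endothelial ligands with leukocyte receptors. The ligands were Icam1, Icam2, Vcam1 and Sele, and the genes on the leukocyte side were Selplg, Itgal, Itgb2 and Itga4.

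Leukocytes leave the blood in steps. E-selectin, encoded by Sele and displayed by activated endothelium, catches P-selectin glycoprotein ligand 1, encoded by Selplg, and lets the cells roll along the vessel wall. The cells then stop when the integrin of Itgal and Itgb2 (LFA-1) binds the products of Icam1 and Icam2, or when an integrin that contains the product of Itga4 binds that of Vcam1. Inflammatory cytokines such as TNF and IL-1 induce Icam1, Vcam1 and Sele in endothelium, whereas Icam2 is made by resting endothelium, and Icam1 and Vcam1 are also made by macrophages, fibroblasts and some tumor cells.

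The samples were peritoneal tumors of MC38, a murine colon cancer line, of which 500000 cells were implanted into the peritoneum of wild-type male C57BL/6 mice bought at 7 to 8 weeks of age. From day 7, mice received 2 intraperitoneal injections of 15 µg RR-CDA, a cyclic dinucleotide that activates the innate immune adaptor STING, or an equal volume of PBS. Tumors were taken 10 days after the first injection, 4 per group, and are called PBS 1 to PBS 4 and STING 1 to STING 4. RNA came from whole tumor, and the summed counts of the 750 genes ranged from 241506 to 414698 per tumor. The legend of the published figure gives 2 experiments as the source of these data, and the labels do not tell which tumor belongs to which, so experiment could not be entered into any comparison. The labels give the tissue as colon. Of 8 epithelial markers 3 were on the panel (Epcam, Cdh1 and Muc1), and their summed normalized count was low in every sample, between 29.8 and 63.7.

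PBS 2 and PBS 4 were almost identical at moderate counts. Their chi-square per degree of freedom was 0.404 over the 358 genes with a mean count from 20 to under 300, while every other pair of tumors within a group had 5.89 to 12.6. Among the 61 genes with the highest counts this pair reached 6.39, and every other pair 45.1 to 364. The counts of the pair were averaged, rounded to whole counts (0.5 upward) and used as 1 sample, so the comparison has n = 3 PBS samples and n = 4 STING-treated tumors. At low counts this sample, called the mean of PBS 2 and 4, can lie above both of its separate normalized values. Values are normalized counts, that is, counts divided by a factor made from the geometric mean of 20 housekeeping probes. They are listed in the order PBS 1, mean of PBS 2 and 4, PBS 3, then STING 1 to STING 4. The labels do not say that each tumor came from a separate mouse, so p-values measure only the spread between these samples.

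With STING treatment, 7 of the 8 genes had a higher mean normalized count than in PBS-treated controls, and Sele lay at background. Over the panel 531 of 750 genes had a log2 fold change above 0. At an unadjusted p under 0.05 in edgeR's quasi-likelihood test, 4 of the 8 genes were higher, namely Icam1 among the ligands and Itgal, Itgb2 and Itga4 among the receptors, against 17.7% of the panel. None (0 of 8) was lower, against 1.33% of the panel. In Icam1, Icam2, Itgb2 and Itga4 every STING-treated tumor lay above every PBS sample, 4 of 8 genes against 16.8% of the panel, and 0 of 8 lay below without overlap, against 1.47%. After Benjamini-Hochberg adjustment over 750 genes, 0 of the 8 genes and 0.0% of the panel passed 0.05 in edgeR. DESeq2 (Wald test) passed 52 panel genes and 0 of the 8, and limma passed 0 and 0. The median log2 fold change was 0.54 over the 3 ligands other than Sele and 0.85 over the receptors, beside 0.21 over all 750 genes (0.36 without PBS 3). These counts leaned on single samples. The number of the 8 genes under an unadjusted p of 0.05 was 0 without PBS 2 and 4, 0 without STING 4, 2 without PBS 1 and 2 without STING 1, and it was also 0 when samples were scaled to their total count. Over the whole panel, 133 genes were higher and 10 lower at this threshold. The 133 became 77 without STING 1, 79 without STING 4 and 68 with total count scaling, so the panel lost calls there as well. They lay within 77 to 153 for every sample left out, PBS 1 and the mean of PBS 2 and 4 included. The 10 became 17 without PBS 2 and 4 and 21 without STING 3. With TMM normalization the split was 87 higher and 40 lower. Leaving out PBS 3 gave 235 panel genes without overlap in place of 126, a number that can only stay or rise when a sample is left out. It gave 1 panel gene with an adjusted p under 0.05 in edgeR, and leaving out STING 3 gave 7 such genes (edgeR).

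The samples held the same places in most of the genes. The mean of PBS 2 and 4 was the lowest PBS sample in 6 of the 7 genes other than Sele, with Icam2 the exception, against 53.4% of 517 panel genes with a mean of at least 20. Among STING-treated tumors, STING 4 was the highest in 5 of the 7 (36.9% of the panel genes) and STING 3 the lowest in 5 (35.2%).

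**Figure D1:**
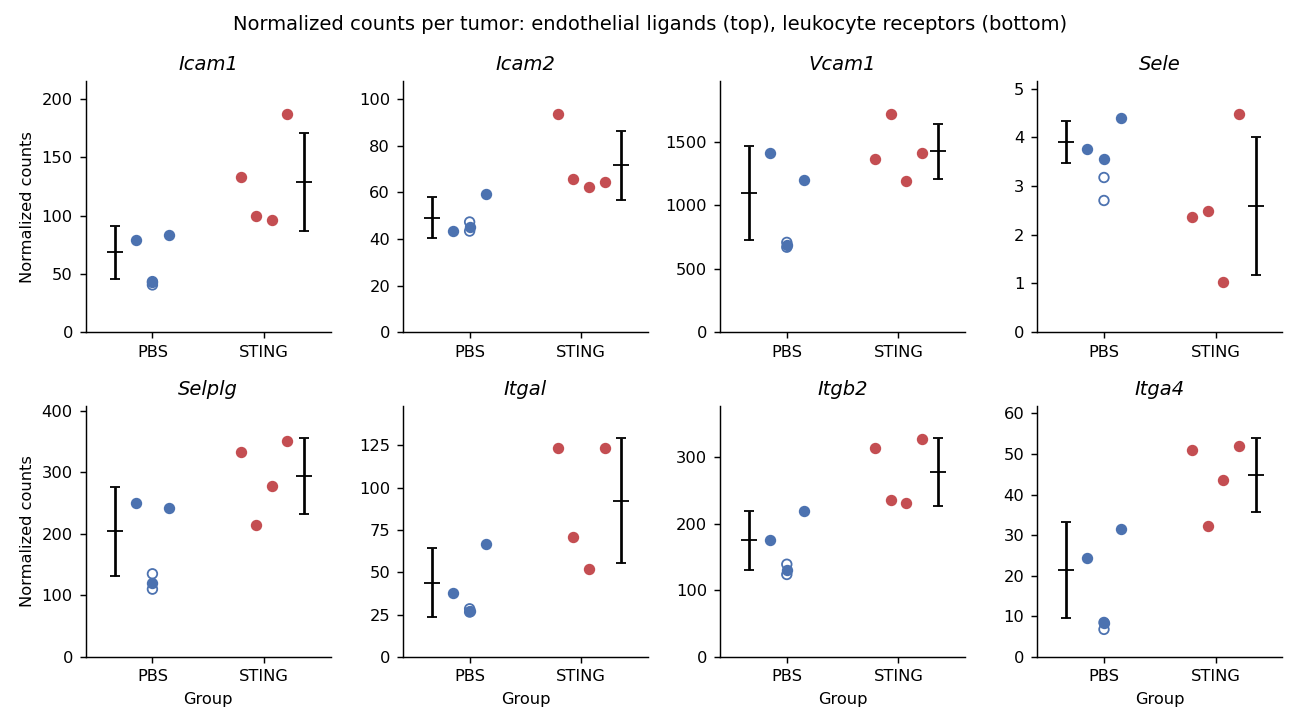
Normalized counts (y axis, from 0, with a scale of its own for each gene) of the 4 ligands and 4 leukocyte genes in PBS-treated (blue) and STING-treated (red) tumors, with PBS 2 and PBS 4 also drawn as open circles and bars giving mean ± SD over 3 PBS samples and 4 STING-treated tumors. The groups do not overlap in Icam1, Icam2, Itgb2 and Itga4, and every Sele value lies under 5.

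Icam1 encodes the main ligand of LFA-1, and was the ligand with the largest difference. Its normalized counts were 79.0, 42.6 and 83.5 in the PBS samples and 133, 99.4, 96.6 and 187 in the STING-treated tumors. All 4 STING-treated tumors lay above every PBS sample, STING 4 well above the rest, and the closest values were PBS 3 and STING 3. The mean was 1.89 times that of the controls (log2 fold change 0.91 ± 0.33 SE, edgeR adjusted p = 0.217), and an exact two-sided permutation test gave p = 0.0286, the smallest possible with 3 samples against 4. With the 8 tumors kept separate the log2 fold change was 1.06 (adjusted p = 0.0843, edgeR). Over all 20 alternatives it lay between 0.66 and 1.08, with adjusted p between 0.0765 and 0.440.

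Icam1 spans chr9:21015940-21028814 (GRCm38.p6), and the 250 bases before its start were read from RefSeq, as were those of Sele and Itga4, the members of the set that the promoter table held (3 of 8). These stretches were searched on both strands for 5 motifs, and the Icam1 and Sele promoters are shown because both genes are cytokine-induced ligands, of which one was well measured here and the other lay at background. Capitals mark every match.
Icam1, chr9:21015690-21015939, plus strand: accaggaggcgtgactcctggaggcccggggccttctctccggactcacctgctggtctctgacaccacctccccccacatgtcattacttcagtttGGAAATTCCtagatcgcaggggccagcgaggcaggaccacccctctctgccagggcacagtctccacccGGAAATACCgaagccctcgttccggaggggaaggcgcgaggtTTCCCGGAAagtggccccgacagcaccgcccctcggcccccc
Sele, chr1:164047984-164048233, plus strand: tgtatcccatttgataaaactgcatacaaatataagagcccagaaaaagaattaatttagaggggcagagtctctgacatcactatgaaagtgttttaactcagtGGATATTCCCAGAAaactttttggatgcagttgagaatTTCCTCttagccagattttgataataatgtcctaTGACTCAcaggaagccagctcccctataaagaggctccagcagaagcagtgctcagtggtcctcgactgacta
The Icam1 stretch held the NF-kB type motif GGNNNTTCC at 2 places, beginning 153 and 84 bases before the start, and the STAT type motif TTCNNNGAA once, 42 bases before it. The Sele stretch held GGNNNTTCC 145 bases and TTCNNNGAA 140 bases before its start, overlapping each other, the PU.1 type motif GAGGAA (read on the other strand) 107 bases and the AP-1 type motif TGANTCA 73 bases before it. The interferon response motif (GAAA, any 2 bases, GAAA) was in neither, and the Itga4 stretch (chr2:79255176-79255425) held none of the 5. Of 32851 promoters of the same length, 15.7% held GGNNNTTCC, 7.02% TTCNNNGAA, 23.3% GAGGAA, 6.75% TGANTCA and 2.98% the interferon response motif. The Sele stretch lies inside the annotated span of the gene (chr1:164039614-164058487), since the table takes a later start.

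Icam2 encodes the ligand of LFA-1 that resting endothelium carries. Normalized counts were 43.2, 45.0 and 59.3 in the PBS samples and 93.8, 65.8, 62.3 and 64.6 in the STING-treated tumors. The groups did not overlap, but 3 of the 4 STING-treated tumors stood close to PBS 3, and STING 1 stood apart. Its mean was 1.46 times that of the controls (log2 fold change 0.54 ± 0.27 SE, edgeR adjusted p = 0.322), with an exact permutation p of 0.0286. Without STING 1 the log2 fold change was 0.38 (adjusted p = 0.582, edgeR).

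Vcam1, the ligand of the Itga4 integrins, had normalized counts of 1408, 685 and 1195 in the PBS samples and 1364, 1719, 1193 and 1414 in the STING-treated tumors. The groups overlapped. PBS 1 and PBS 3 lay among the STING-treated tumors, and only the mean of PBS 2 and 4 stood below them. The log2 fold change of 0.38 ± 0.25 SE (edgeR adjusted p = 0.439) was 0.13 when that sample was left out (adjusted p = 0.773, edgeR). Without PBS 1 it was 0.60 (adjusted p = 0.345, edgeR).

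Sele was not measurable at this depth. Its counts were 4, 3, 6 and 2 in PBS 1 to PBS 4 and 2, 2, 1 and 5 in STING 1 to STING 4, each below the background of its own tumor (5.03 to 11.3 counts, taken as 2 SD above the mean of the negative controls). The 95% Poisson intervals of the highest PBS count (2.20 to 13.1) and of the lowest STING count (0.0253 to 5.57) overlap, and cover counting error only. Its fold change and its ratios to other genes are therefore not read here.

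On the leukocyte side, Itgal encodes the alpha chain of LFA-1, found on nearly all leukocytes and high on T cells. Normalized counts were 37.6, 27.2 and 66.6 in the PBS samples and 123, 70.8, 51.9 and 124 in the STING-treated tumors. STING 1 and STING 4 were far above all others, and STING 3 lay below PBS 3, so the groups overlapped in that pair. The mean was 2.11 times that of the controls, with a log2 fold change of 1.06 ± 0.42 SE (edgeR adjusted p = 0.230) and an exact permutation p of 0.114. In whole tumor RNA, more leukocytes in the tumor and more RNA of the gene per leukocyte cannot be told apart. For each other gene described here, the same holds for the number of cells that make it and the RNA per such cell.

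Itgb2, the beta chain that LFA-1 shares with the myeloid integrins of Itgam and Itgax, had normalized counts of 175, 130 and 220 in the PBS samples and 315, 236, 232 and 328 in the STING-treated tumors. No STING-treated tumor lay below a PBS sample. STING 2 and STING 3 were just above PBS 3, whereas STING 1 and STING 4 were clear of it. The mean was 1.59 times that of the controls (log2 fold change 0.66 ± 0.23 SE, edgeR adjusted p = 0.204), with an exact permutation p of 0.0286. Of the 8 genes it had the lowest adjusted p, and with the 8 tumors kept separate this was 0.0798 (edgeR).

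Itga4 encodes the alpha chain of VLA-4, which binds Vcam1 and is carried by lymphocytes and monocytes. Normalized counts were 24.4, 8.29 and 31.5 in the PBS samples and 51.0, 32.3, 43.6 and 52.0 in the STING-treated tumors. The groups did not overlap, with STING 2 next to PBS 3. In PBS 2 and PBS 4 the counts were 8 and 5 (normalized 8.47 and 6.76, averaged and rounded to 8.29), below the background of 11.3 and 8.27 counts there, so that the low PBS value is uncertain. The mean was 2.09 times that of the controls, with a log2 fold change of 1.04 ± 0.44 SE (edgeR adjusted p = 0.247) and an exact permutation p of 0.0286. Without PBS 2 and 4 the log2 fold change was 0.67 (adjusted p = 0.415, edgeR).

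Selplg, whose product leukocytes of most kinds carry, showed the smallest difference of the leukocyte genes. Normalized counts were 250, 121 and 242 in the PBS samples and 334, 215, 277 and 351 in the STING-treated tumors. STING 2 lay below PBS 1 and PBS 3, and the other 3 tumors above every PBS sample. The log2 fold change of 0.52 ± 0.28 SE (edgeR adjusted p = 0.355) was 0.26 without PBS 2 and 4 (adjusted p = 0.638, edgeR).

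The size of these differences also depended on the scaling. With TMM normalization, which centres the samples on the bulk of the panel, the median log2 fold change of the 750 genes moved from 0.21 to -0.021. The log2 fold changes were then 0.67 for Icam1, 0.30 for Icam2 and 0.16 for Vcam1, and 0.84 for Itgal, 0.43 for Itgb2, 0.83 for Itga4 and 0.29 for Selplg. None of these 7 genes changed direction under any of the 4 other scalings.

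**Figure D2:**
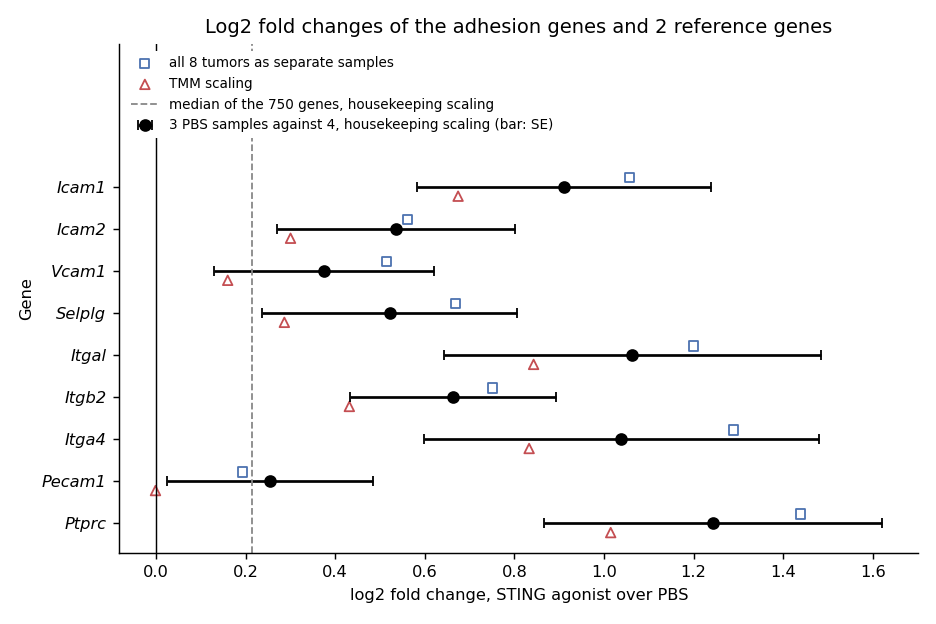
Log2 fold change of STING-treated over PBS-treated tumors (x axis) for the adhesion genes other than Sele, Pecam1 and Ptprc, as edgeR estimate with SE (black), with all 8 tumors separate (blue squares) and with TMM scaling (red triangles), and the median of the 750 genes as a dashed line at 0.21. Itgal and Itga4 lie highest of the 7 adhesion genes, and TMM scaling moves each estimate to the left by about the panel's median.

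Ligand and receptor were next compared within each tumor, as a log2 ratio of normalized counts with 1 added to each, which takes out the scaling almost fully. The level of such a ratio also depends on the probes, so only its difference between groups is read. Of 15 ratios, 0 had an adjusted p under 0.05 (exact two-sided permutation tests over 35 arrangements, with Benjamini-Hochberg adjustment over the 15), and the lowest adjusted p was 0.286. This outcome was nearly set by the design, since at least 9 of the 15 would need the smallest possible p for any to pass. The Icam1/Itgal ratio was 1.05, 0.63 and 0.32 in the PBS samples and 0.11, 0.48, 0.88 and 0.59 in the STING-treated tumors, a difference of -0.15 (exact permutation p = 0.60), and the groups overlapped. For Icam1/Itgb2 the difference was 0.24 (exact permutation p = 0.286), with STING 4 above all other tumors, and for Icam2/Itgal it was -0.54 (exact permutation p = 0.257). All 3 leaned on single samples, as Icam1/Itgal was 0.042 without PBS 1, Icam1/Itgb2 0.13 without STING 4 and Icam2/Itgal -0.31 without PBS 2 and 4.

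The log2 ratio of Vcam1 to Itga4 was 5.79, 6.21 and 5.20 in the PBS samples and 4.71, 5.69, 4.74 and 4.74 in the STING-treated tumors. In 3 of the 4 STING-treated tumors it lay below every PBS sample, while STING 2, the tumor with the most Vcam1, lay among them. The difference was -0.76 (exact permutation p = 0.0857, adjusted p = 0.321), and it rests in part on the low Itga4 counts of PBS 2 and 4, without which it was -0.53. The ratios of Sele to Selplg and to Pecam1 were among the 15, and are not read because every Sele count lay under the background.

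The receptors were also set against Ptprc, which encodes CD45, the surface protein of all leukocytes. Ptprc itself had normalized counts of 110, 42.6 and 113 in the PBS samples and 261, 169, 142 and 272 in the STING-treated tumors, 2.39 times as high on average (log2 fold change 1.24 ± 0.38 SE, edgeR adjusted p = 0.181). In the DESeq2 Wald test its adjusted p was 0.0284. Every STING-treated tumor lay above every PBS sample. Of the 5 leukocyte markers on the panel, Ptprc had the largest log2 fold change. Selplg (0.52) and Itgb2 (0.66) lay below Lcp1 (0.92) and Cd53 (0.84), but above Cd48 (0.30) and Cd37 (0.20). The ratios below therefore hold for Ptprc as the reference, and ratios to the other leukocyte markers were not computed. The Selplg/Ptprc log2 ratio was 1.18, 1.48 and 1.10 in the PBS samples and 0.35, 0.35, 0.96 and 0.37 in the STING-treated tumors. All 4 STING-treated tumors lay below the PBS samples, 3 of them by a wide margin and STING 3 narrowly. This difference of -0.75 had an exact permutation p of 0.0571 (adjusted p = 0.286), and with the 8 tumors kept separate it was -0.81 (exact permutation p = 0.0286, adjusted p = 0.214).

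For Itgb2/Ptprc the log2 ratio was 0.66, 1.59 and 0.96 in the PBS samples and 0.27, 0.48, 0.70 and 0.27 in the STING-treated tumors. STING 3 overlapped with PBS 1, and the other 3 tumors lay below the PBS samples (difference -0.64, exact permutation p = 0.0571, adjusted p = 0.286). Without PBS 2 and 4 it was -0.38. For the integrin alpha chains the difference was -0.25 for Itgal/Ptprc (exact permutation p = 0.343) and -0.13 for Itga4/Ptprc (exact permutation p = 0.543). Both were unsteady, with -0.53 without PBS 1 and -0.084 without PBS 2 and 4 for Itgal/Ptprc, and -0.29 without STING 3 and -0.0041 without PBS 3 for Itga4/Ptprc, which turned to 0.17 with the background subtracted. Whether the ratios of Selplg and Itgb2 differ from those of Itgal and Itga4 was tested only for Itgal/Itgb2, with a difference of 0.39 (exact permutation p = 0.171).

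The ligands were set against Pecam1, which encodes CD31 of endothelial cells. Pecam1 had normalized counts of 110, 160 and 139 in the PBS samples and 171, 129, 210 and 140 in the STING-treated tumors, and the groups overlapped. Its log2 fold change was 0.25 ± 0.23 SE (edgeR adjusted p = 0.597), and -0.0013 with TMM normalization, 0.11 without STING 3 and 0.38 without PBS 2 and 4. Against Pecam1, Icam1 differed by 0.67 (exact permutation p = 0.286), Icam2 by 0.28 (exact permutation p = 0.343) and Vcam1 by 0.19 (exact permutation p = 0.714). The Icam1/Pecam1 ratio was -0.47, -1.88 and -0.73 in the PBS samples and -0.36, -0.38, -1.11 and 0.42 in the STING-treated tumors. The mean of PBS 2 and 4 stood lowest and STING 4 highest, and without PBS 2 and 4 the difference was 0.24. That of Vcam1/Pecam1 was then -0.24 and that of Icam2/Pecam1 0.11, while the latter was 0.47 without STING 3.

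**Figure D3:**
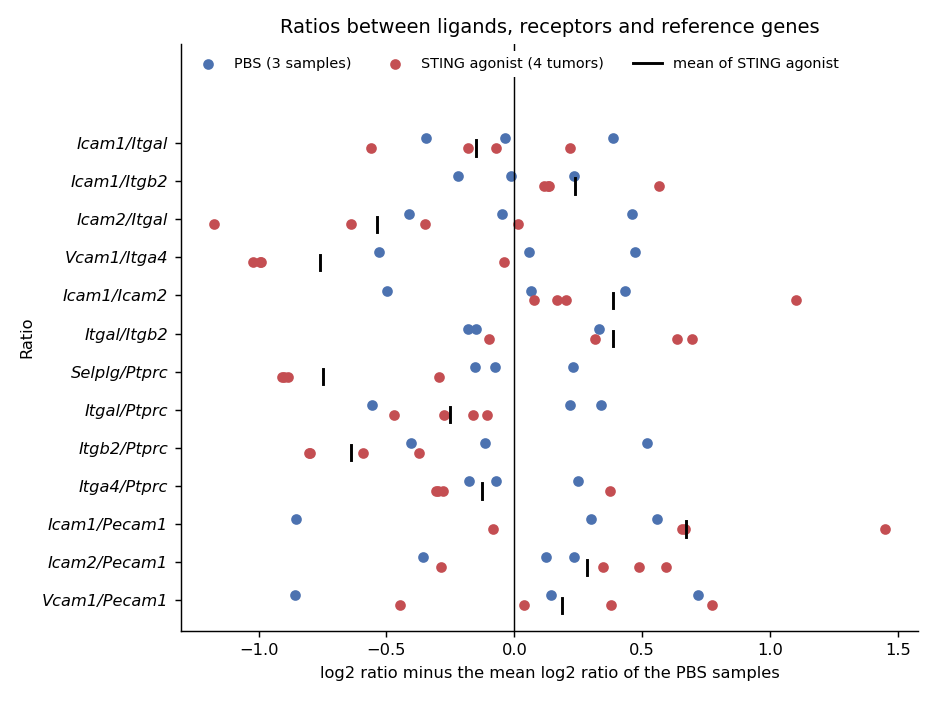
Log2 ratio of each gene pair without Sele (13 of 15) in each tumor, minus the mean log2 ratio of the PBS samples (x axis), for 3 PBS samples (blue) and 4 STING-treated tumors (red), with a black bar at the mean of the STING-treated tumors. The STING-treated tumors lie below all PBS samples in Selplg/Ptprc, and are mixed with them in Icam1/Itgal.

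Of 21 other integrin subunits listed, 11 were on the panel. At an unadjusted p under 0.05, 2 were higher (Itgax and Itga1) and 1 was lower (Itgb4), beside the panel's 17.7% and 1.33%, and the median log2 fold change was 0.019. Itgax, the alpha chain of CD11c on dendritic cells and some macrophages, had normalized counts of 2.82, 3.55 and 5.86 in the PBS samples and 23.7, 14.9, 8.31 and 22.4 in the STING-treated tumors. Its counts were under the background in all 4 PBS-treated tumors and in STING 3, so only STING 1, STING 2 and STING 4 hold a measured value. Itga1, a collagen-binding chain, was 78.0, 85.3 and 83.5 against 129, 119, 103 and 126, without overlap (log2 fold change 0.54 ± 0.19 SE, edgeR adjusted p = 0.204), but its log2 fold change was 0.29 with TMM and 0.27 with DESeq2 size factors, and its unadjusted p was under 0.05 in 14 of 20 alternatives. Itgb4, a laminin-binding chain of epithelial cells, was 108, 90.0 and 106 against 62.9, 70.8, 77.9 and 44.8, so that all 4 STING-treated tumors lay below the PBS samples (log2 fold change -0.66 ± 0.24 SE, edgeR adjusted p = 0.217). Itgb1, which pairs with Itga4 in VLA-4 and had the highest count of the list, was at 3355 ± 450 (SD, n = 3) and 3421 ± 152 (SD, n = 4) normalized counts. Its log2 fold change of 0.028 turned to -0.21 with TMM normalization.

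Among 34 other adhesion and trafficking genes listed, 21 were on the panel, of which 1 was higher at an unadjusted p under 0.05 and 0 were lower, beside 17.7% and 1.33% of the panel, with a median log2 fold change of 0.11. The gene was Cx3cl1, which encodes fractalkine, a chemokine that endothelial cells can hold on their surface as an adhesion molecule. It had normalized counts of 19.7, 30.8 and 28.6 in the PBS samples and 64.1, 67.1, 34.3 and 62.8 in the STING-treated tumors. All 4 STING-treated tumors were above the PBS samples, STING 3 only just (log2 fold change 1.11 ± 0.34 SE, edgeR adjusted p = 0.181). Fn1, which encodes the matrix protein fibronectin and had the highest count of this list, had a log2 fold change of -0.056 ± 0.14 SE, and of -0.33 with DESeq2 size factors.

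Of 20 signals known to induce endothelial adhesion molecules, 19 were on the panel, and 4 were higher at an unadjusted p under 0.05, with 0 lower and a median log2 fold change of 0.22. In the panel 17.7% were higher and 1.33% lower, with a median of 0.21. Without overlap 6 of the 19 were higher, against 16.8% of the panel, and the summed normalized count of the list was 1.39 times that of the controls, with 4 of 4 STING-treated tumors above every PBS sample. They included Irf1, an interferon-induced transcription factor with the highest mean of the list over all samples. In the PBS samples Nfkb2 of the same list had normalized counts of 1072, 910 and 1388. Irf1 had 1160, 866 and 1016 there, and 2056, 2083, 1472 and 2558 in the STING-treated tumors. Il1b was 13.2, 37.9 and 32.2 against 190, 60.9, 46.7 and 90.6, again without overlap (log2 fold change 1.80 ± 0.56 SE, edgeR adjusted p = 0.181). Ltb, which encodes lymphotoxin beta, was 15, 5.92 and 17.6 against 43.9, 21.1, 18.7 and 40.3, with STING 3 just above PBS 3 and counts under the background in PBS 2 and PBS 4.

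**Figure D4:**
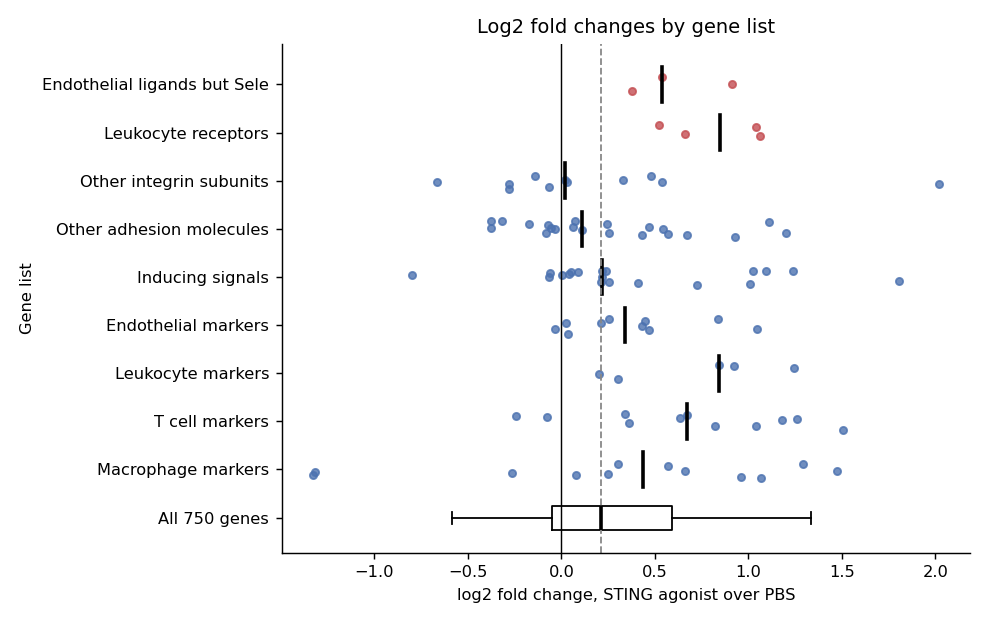
Log2 fold change of STING-treated over PBS-treated tumors (x axis) of each gene (points) in the 8-gene set without Sele (red) and in other gene lists (blue), with the median of each list as a black bar and all 750 genes as a box (quartiles, with whiskers from percentile 5 to 95). The leukocyte genes of the set have a median of 0.85 and other integrin subunits of 0.019, beside the panel's 0.21 (dashed line).

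Markers of the cells that carry these genes were read from lists, whose counts of genes stand beside the 17.7% higher and 1.33% lower of the panel. Leukocyte markers, of which 5 of 9 were on the panel, had summed normalized counts of 946, 492 and 996 in the PBS samples and 1624, 1123, 1080 and 1804 in the STING-treated tumors. Ptprc, Lcp1 and Cd53 were higher at an unadjusted p under 0.05, and Lcp1, an actin-bundling protein, was the most abundant. Cd48 and Cd37 did not reach this threshold, with log2 fold changes of 0.30 and 0.20. T cell markers, with 11 of 11 on the panel, summed to 212, 133 and 242 in the PBS samples and 482, 260, 267 and 443 in the STING-treated tumors, 1.86 times as high on average. Cd3g, Cd8a, Cd3e and Cd8b1 were higher at an unadjusted p under 0.05, and 4 of the 11 had a mean count under the background. Counts were also under the background in PBS 1, PBS 2 and PBS 4 for Cd8b1, in PBS 2 and PBS 4 for Cd3e and in PBS 2 for Cd8a. Cd3d was the most abundant in the PBS samples, with a mean of 66.1 normalized counts against 36.1 for Cd3g. In the STING-treated tumors Cd3g was the most abundant, with a mean of 104 against 85.0 for Cd3d. STING 1 and STING 4, the tumors with the highest Itgal, were also highest in both sums.

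Macrophage and monocyte markers, with 12 of 13 on the panel, summed to 4942, 2420 and 6913 in the PBS samples and 8028, 6223, 6324 and 7726 in the STING-treated tumors, and the most abundant was Lyz2. No leukocyte, macrophage or endothelial marker had a mean count over the 8 tumors under the background. Counts of Cd53 lay under it in PBS 1, PBS 2 and PBS 4, however, so its low PBS values are uncertain. Ccr2, Emr1 and Fcgr1 were higher and Cd163 and Marco lower at an unadjusted p under 0.05. The groups overlapped in Cd163 and Marco, and both lost this call without PBS 3, with log2 fold changes from -1.32 to -0.89 and from -1.33 to -0.48. Some other marker calls were no steadier, since an unadjusted p under 0.05 was kept by Cd163 in 17 of 20 alternatives and by Marco in 12 of 20, but by Cd53 in 10 of 19, Cd8b1 in 9 of 19, Eng in 9 of 20 and Col1a1 in 11 of 20. Endothelial markers, with 10 of 17 on the panel, summed to 3183, 3641 and 3901 in the PBS samples and 4013, 3566, 3879 and 3496 in the STING-treated tumors, a ratio of means of 1.05. The most abundant was Cd34, with 74.8% of the sum, and without it the ratio was 1.29. Kdr and Eng, which encode receptors for VEGF and for TGF-beta family ligands on endothelium, were higher at an unadjusted p under 0.05. Kdr had normalized counts of 37.6, 32.0 and 60.8 in the PBS samples and 84.3, 116, 66.5 and 95.9 in the STING-treated tumors. The mean of PBS 2 and 4 was the lowest PBS sample in the sums of leukocyte, T cell and macrophage markers and in Kdr and Eng. It was not the lowest in the endothelial sum, and was the highest PBS sample in Pecam1, Cdh5, Tie1, Vwf and Angpt2 of that list. The part of these cell types in the differences of the adhesion genes was not tested.

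**Figure D5:**
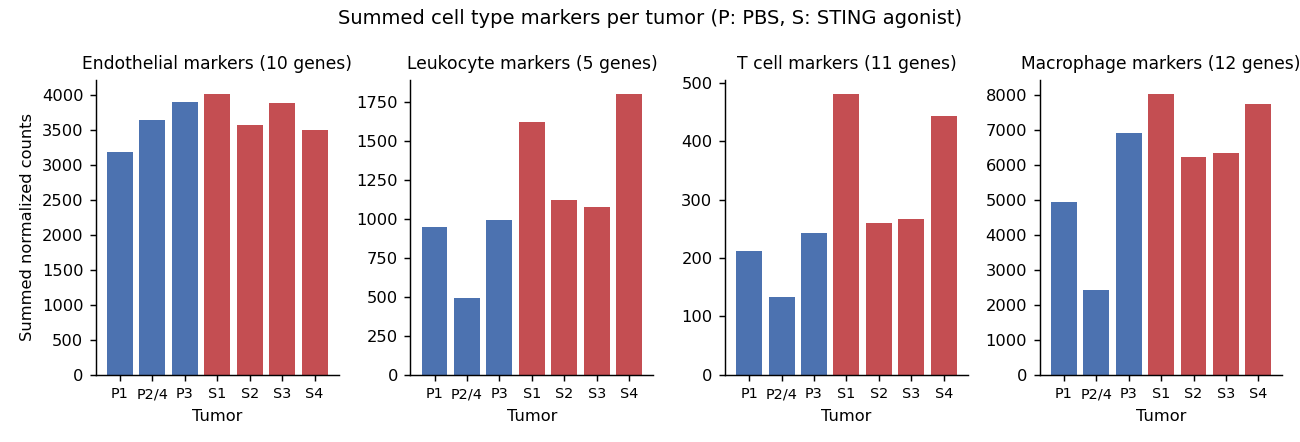
Summed normalized counts (y axis, from 0, with a scale of its own for each list) of endothelial, leukocyte, T cell and macrophage markers in each PBS sample (P, blue) and STING-treated tumor (S, red), 1 bar per sample. Leukocyte and T cell sums are higher in all 4 STING-treated tumors than in any PBS sample, and endothelial sums overlap.

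The other marker lists had few such genes. Of neutrophil (7 of 9 on the panel), B cell (9 of 9) and platelet (2 of 5) markers, 0 had an unadjusted p under 0.05 in edgeR. Their sums overlapped between groups, with 338, 625 and 398 against 692, 321, 589 and 435 for neutrophils, 43.2, 56.9 and 84.9 against 91.4, 38.5, 85.2 and 81.6 for B cells, and 26.3, 62.8 and 55.6 against 28.5, 33.5, 64.4 and 36.8 for platelets. The most abundant were S100a8, Cd79b and Ppbp, and 3 neutrophil and 7 B cell markers had a mean count under the background. Of 9 dendritic cell markers 4 were on the panel, and they summed to 34.8, 56.9 and 48.3 against 89.0, 43.5, 64.4 and 63.7. Itgax alone was higher at an unadjusted p under 0.05, Ccr7 was the most abundant and 1 of the 4 was under the background. Fibroblast and pericyte markers, 7 of 12 on the panel, were summed at 15134 ± 529 (SD, n = 3) and 13487 ± 1291 (SD, n = 4) normalized counts, with 4 of 4 STING-treated tumors below the PBS samples. This rested on the most abundant, Col3a1, with 50.0% of the sum, as the ratio of means was 0.891 with it and 1.07 without it. Col3a1 was lower and Col1a1 higher at an unadjusted p under 0.05. Hepatocyte markers, 13 of 28 on the panel, summed to 1843 in STING 4 and to between 148 and 295 in all other samples. Ambp was the most abundant in STING 4, with 775 normalized counts, and Lbp in every other sample. Ambp and F12 were higher at an unadjusted p under 0.05 (edgeR), with log2 fold changes of 4.88 and 2.51. Without STING 4 these were 0.18 and 0.52. STING 4 was also the tumor with the highest Icam1, and without it the log2 fold change of Icam1 was 0.67 (adjusted p = 0.440, edgeR).

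Patterns over the 7 samples were compared as the root mean square difference of log2 values centred on each gene's mean, over 516 other genes with a mean of at least 20 normalized counts. The patterns closest to Icam1 were those of Il12rb1 (0.075), Cfb (0.12) and Lcp1 (0.13), where the median gene differed by 0.54. Il12rb1, a chain of the IL-12 receptor, had normalized counts of 63.9, 32.0 and 68.8 in the PBS samples and 99.7, 85.7, 71.6 and 151 in the STING-treated tumors, with STING 4 highest as in Icam1. Closest to Itgal were Cd274 (0.13), which encodes PD-L1, Mefv (0.16) and Plau (0.17), where the median gene differed by 0.65. Cd274 was 164, 122 and 271 in the PBS samples and 533, 339, 284 and 590 in the STING-treated tumors, with STING 1 and STING 4 highest as in Itgal. For Itgb2 the closest were Ncf4 (0.091), Irf8 (0.10) and Alcam (0.13), with a median of 0.41, and for Vcam1 they were Dusp6 (0.13), Nrp1 (0.14) and Tlr3 (0.15), with a median of 0.46. Dusp6, Nrp1 and Tlr3 shared with Vcam1 a low value in the mean of PBS 2 and 4, of 419, 198 and 55.7 normalized counts, against 777, 376 and 96.8 in PBS 1.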

How the data were processed

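The counts are raw NanoString counts as the authors deposited them, with 784 probes (750 immune-related genes, 20 housekeeping, 8 negative and 6 positive controls) in each of 8 tumors. Counts were scaled by the geometric mean of the housekeeping probes, PBS 2 and PBS 4 were averaged and rounded as 1 sample, and groups were compared with edgeR 4.0.16 (quasi-likelihood test, R 4.3.3), with Benjamini-Hochberg adjustment over 750 genes. Ratios were compared by exact permutation of the group labels (Python 3.11.15, scipy 1.17.1). A count is above background when it exceeds the mean of the negative controls of its tumor by 2 SD.

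The 8 genes and the gene lists were chosen with earlier results of these data known. Genes outside the 8 are named when they had an unadjusted p under 0.05 in a list or the pattern closest to one of the 8. Genes with the highest mean of a list over all samples are also named, as are genes set beside any of these. Single values of some genes are not reported here. Alternatives were TMM, DESeq2 size factors, total count scaling, housekeeping probes with at least 100 counts, a mean count of at least 20, background subtraction, DESeq2 1.42.0 with its Wald test, limma 3.58.1, the methods' per-gene test, all 8 tumors separate, a replicate block, and each sample left out. The use of PBS 2 or PBS 4 alone was added after seeing the data.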

Additional observations from a re-analysis of the deposited data

Results flagged for a closer look

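Within the 4 STING-treated tumors, 71 values were tested for a single outlying tumor with Dixon's ratio, the gap to the nearest value divided by the range, and 10 passed the limit for 4 values where about 1 in 20 (3.55) would by chance if the values were independent. They are not, as several share a gene or a tumor, so the 2 counts do not measure an excess. STING 4 was set apart upward in Ambp (0.988), F12 (0.951), the Icam1/Itgb2 ratio (0.962) and the Icam1/Icam2 ratio (0.878). STING 3 was set apart upward in Ppbp (0.915), Selplg/Ptprc (0.965) and Itga4/Ptprc (0.955), and downward in Cx3cl1 (0.868). STING 1 was set apart upward in Icam2 (0.888), and STING 2 in the Vcam1/Itga4 ratio (0.970).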

How the results depend on the processing

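The comparison rests on 3 PBS samples and 4 treated tumors, and 0 genes passed the adjusted threshold in edgeR. Of 474 alternative values of main results, 444 kept their label, 5 reversed and 25 moved or changed otherwise. Among 1035 other values, 986 kept it and 21 reversed. The causes of these differences were not tested.

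Genes higher at an unadjusted p under 0.05 numbered 4 of the 8, 0 with total count scaling, 2 in the methods' per-gene test, 6 with all 8 tumors separate and 0 to 4 when each sample was left out, and those without overlap were 2 with total count scaling. Over the panel, the 133 higher genes became 87 with TMM, 81 with DESeq2 size factors, 68 with total count scaling, 87 in the methods' per-gene test, 186 with all 8 tumors separate and 77 to 153 on leaving out a sample. The 10 lower genes became 40, 45 and 31 with the same scalings in turn, and 7 to 21 on leaving out a sample. The 126 genes without overlap became 70, 68 and 67, and 134 to 235 on leaving out a sample, which can only keep or raise this number. Genes with an adjusted p under 0.05 were 0 in edgeR, 52 in the DESeq2 Wald test, and 0 to 7 in edgeR on leaving out a sample.

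The panel median of 0.21 was -0.021 with TMM and -0.035 with DESeq2 size factors, and 0.16 to 0.36 on leaving out a sample. Itgb1 (0.028) was -0.21 with TMM, -0.22 with DESeq2 size factors and -0.17 with total count scaling, -0.020 with PBS 2 alone and -0.034 to 0.14 on leaving out a sample. In the same order, Nrp1 (0.13) was -0.086, -0.10 and -0.083, and -0.093 to 0.32. S100a8 (0.15) was -0.16, -0.17 and -0.040, and -0.043 to 0.49. Pecam1 (0.25) was -0.0013 with TMM and -0.014 with DESeq2 size factors. On leaving out a sample, Cd34 (-0.035) was -0.074 to 0.033, Ppbp (-0.22) -0.61 to 0.074, Icam1/Itgal (-0.15) -0.32 to 0.042 and Vcam1/Pecam1 (0.19) -0.24 to 0.54. With background subtracted, Itga4/Ptprc (-0.13) was 0.17 and Sele, which lies at background, 0.48.

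With replicate number as a block and all 8 tumors separate, Icam1 was 1.07 (edgeR adjusted p = 0.154). Pairing by number has no support in the values, as deviations of tumors with the same number had correlations of -0.084, -0.089, -0.28 and -0.12.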
